A study of Homo sapiens with 22 samples.

Results

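MANF, CDNF, CRELD2, CRELD1 and the KDEL receptors KDELR1, KDELR2 and KDELR3 were followed in LN308 cells under drug-induced stress of the endoplasmic reticulum (ER). These 7 genes, of 58278 gene entries in the count files, were taken by name as ER stress proteins with retention signals, their paralogs and the receptors of such signals. They were chosen with earlier results of these data known, so counts of called members are a description. All 7 were found by their Ensembl identifiers. LN308 is an established glial line from an astrocytoma and lacks p53; all groups share this background. The groups were cells given tunicamycin at 2.5 µg/ml for 2 h or 6 h, cells given thapsigargin at 200 nM for 2 h or 6 h, and cells labelled untreated at 0 h, although the protocol names a DMSO control. Tunicamycin blocks N-linked glycosylation, and thapsigargin blocks the SERCA calcium pump that fills the ER. RNA levels (RNA-Seq of total RNA) and ribosome-protected fragments (Ribo-Seq, which samples mRNAs on ribosomes) were counted per gene. Each assay had 3 tunicamycin libraries at each time, 1 thapsigargin library at each time and 3 untreated libraries. The only control is labelled 0 h, so against untreated cells the drug, its vehicle and the time elapsed cannot be told apart. Nothing in the labels ties the replicates to separate cultures; the p-values below therefore describe the spread between libraries, which may be technical.

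Soluble proteins of the ER carry a short signal at their C-terminal end, and those that leak to the Golgi are bound there by KDEL receptors and carried back in COPI-coated vesicles. Stress of the ER activates the unfolded protein response, in which the sensors IRE1, PERK and ATF6 raise chaperone transcription and lower general translation. MANF is a small ER protein that can be secreted and binds the chaperone BiP, and CDNF is its paralog. CRELD2 is a soluble ER protein with EGF-like domains that is secreted when the ER is stressed, and CRELD1 is its paralog anchored in the membrane. MANF and CRELD2 are known in many cell types as targets of the unfolded protein response, and both carry weak variants of the KDEL signal.

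RNA-Seq totals were 101 to 167 M counts per library (M, mega), and Ribo-Seq totals were 4.39 to 29.2 M. Untreated replicate 1 of the RNA-Seq stood apart: it had counts in 53489 genes, where the rest of that assay had 38264 to 40331. In every RNA-Seq group of 3, replicate 1 also differed most from the others. The chi-square per degree of freedom was 417 to 543 for pairs with replicate 1, and 25.8 to 52.3 for replicates 2 and 3. The cause was not tested, and the RNA-Seq thapsigargin libraries also carry the number 1. Of the markers of the labelled cell type, VIM, NES and S100B had median RNA levels of 1433, 861 and 162 CPM (counts scaled to a common library total). GFAP had a median of 1.76 CPM, and SOX9, AQP4 and ALDH1L1 had medians under 0.2 CPM. Summed glial markers differed widely within untreated cells, from 1090 to 2944 CPM. They were 2578 to 2843 CPM after 2 h and 2229 to 2599 CPM after 6 h of tunicamycin, and 2436 and 1648 CPM after 2 h and 6 h of thapsigargin. The blood list stayed at or below 2.50 CPM in sum in every library. KRT8 and KRT18 carried the epithelial list, since EPCAM, CDH1 and KRT19 were listed at 0 in at least 1 library and stayed under 0.9 CPM. Summed epithelial markers reached 84.6 to 138 CPM after 6 h of tunicamycin, against 55.8 to 70.4 CPM in untreated cells, and summed neuronal markers (MAP2, SYT1 and RBFOX3) reached 215 to 256 CPM, against 145 to 203 CPM. Their part in the results below was not tested. In total RNA from bulk samples, fewer cells of a kind and less RNA per cell cannot be told apart. The Ribo-Seq titles carry 1 index per group, so index and group cannot be told apart.

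The bases upstream of the genes are shown because the stress elements of unfolded protein response promoters were looked for there. Each window holds the 250 bases before an annotated start (RefSeq, GRCh38.p14), 5′ to 3′ on the strand of the gene. Windows were available for 6 of the 7 genes, all but KDELR2. The start used for KDELR1, 48391551 on the minus strand, lies inside the span of the gene (48382575 to 48397412). CRELD1 had windows at the starts 9933834 and 9934051. Capitals mark CCAAT and CCACG on either strand (ATTGG and CGTGG where they lie on the opposite strand), and in KDELR3 also the core of the element bound by XBP1. CRELD2 is shown for a complete stress element, MANF and KDELR3 for parts of one, and CDNF as the paralog of MANF.
CRELD2, chr22:49918384-49918633, plus strand: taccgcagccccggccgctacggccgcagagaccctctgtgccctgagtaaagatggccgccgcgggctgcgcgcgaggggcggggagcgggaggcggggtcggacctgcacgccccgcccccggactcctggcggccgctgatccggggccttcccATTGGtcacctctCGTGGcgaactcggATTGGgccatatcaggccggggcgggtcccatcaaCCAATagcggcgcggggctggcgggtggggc
MANF, chr3:51385041-51385290, plus strand: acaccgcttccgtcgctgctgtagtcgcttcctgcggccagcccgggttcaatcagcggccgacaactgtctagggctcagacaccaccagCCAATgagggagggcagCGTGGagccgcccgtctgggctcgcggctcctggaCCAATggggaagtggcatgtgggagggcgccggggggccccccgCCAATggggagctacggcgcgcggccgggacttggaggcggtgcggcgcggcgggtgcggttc
KDELR3, chr22:38467846-38468095, plus strand: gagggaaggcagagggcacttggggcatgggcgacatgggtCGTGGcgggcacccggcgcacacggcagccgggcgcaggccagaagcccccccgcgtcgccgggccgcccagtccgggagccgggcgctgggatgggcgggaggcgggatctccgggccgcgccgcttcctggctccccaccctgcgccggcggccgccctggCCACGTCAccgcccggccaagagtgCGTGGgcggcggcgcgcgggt
CDNF, chr10:14838038-14838287, minus strand: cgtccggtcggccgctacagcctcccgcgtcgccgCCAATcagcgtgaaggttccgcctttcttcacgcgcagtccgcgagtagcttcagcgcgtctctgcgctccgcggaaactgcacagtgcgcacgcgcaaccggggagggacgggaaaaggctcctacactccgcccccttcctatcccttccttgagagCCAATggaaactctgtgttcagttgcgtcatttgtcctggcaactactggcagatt

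The ER stress response element (ERSE) is CCAAT, 9 bases of any kind and CCACG, and it was searched for on both strands. CRELD2 held 1, on the opposite strand, from 80 to 62 bases upstream of the start. The element occurred in 26 of 35116 such windows over all genes (0.074%), and in none of the windows of the other 5 genes. MANF had 3 CCAAT boxes, at 159 to 155, 107 to 103 and 63 to 59 bases upstream, and 1 CCACG on the opposite strand at 142 to 138, but not at the spacing of the element. CCAAT was present in 32% of all windows and CCACG in 33.5%. KDELR3 had 3 copies of CCACG and no CCAAT. One of these copies overlapped the XBP1-type core (TGACGTG followed by G), which lay on the opposite strand at 46 to 39 bases upstream and occurred in 215 windows (0.612%). CDNF had 2 CCAAT boxes and no CCACG. The second type of stress element (ERSE-II, ATTGG, 1 base and CCACG) was in 18 windows (0.0513%) and in none of these 6 genes. A match describes these letters and is not evidence of binding.

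MANF RNA was 4.32-fold higher after 6 h of tunicamycin than in untreated cells. Levels are given as CPM scaled by the trimmed mean of M-values (TMM), and replicates in the order 1, 2 and 3. MANF (chromosome 3, 51385291 to 51389397) had 388, 285 and 332 CPM after 6 h of tunicamycin, against 58.5, 83.3 and 90.7 CPM in untreated cells. The groups did not overlap, and their means were 335 ± 51.6 and 77.5 ± 16.9 CPM (SD, n = 3 each). The log2 fold change was 2.11 ± 0.24 (SE; adjusted p = 0.00214, edgeR quasi-likelihood test, Benjamini-Hochberg over 41130 genes). After 2 h MANF had 116, 116 and 122 CPM, all above the untreated libraries. The change of 0.61 ± 0.23 on the log2 scale at 2 h did not pass the threshold (edgeR adjusted p = 0.548). Between 6 h and 2 h of tunicamycin MANF rose by 1.50 ± 0.24 (edgeR adjusted p = 0.0187). This last call was lost in 3 of the 6 fits that left out 1 library, those without tunicamycin 2 h replicate 2, 2 h replicate 3 or 6 h replicate 3 (adjusted p up to 0.146).

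CDNF RNA was scarce in LN308 cells. CDNF (chromosome 10, 14819245 to 14838037) had 56, 46 and 37 counts after 6 h of tunicamycin, against 195, 61 and 48 counts in untreated cells, which is 0.369, 0.415 and 0.342 CPM against 0.969, 0.492 and 0.480 CPM. The groups did not overlap, and untreated replicate 1, the library with counts in the most genes, was the highest. The log2 change of -0.79 ± 0.35 did not pass the threshold (edgeR adjusted p = 0.285) and came to -0.36 without that library. In Ribo-Seq CDNF had 0 to 7 counts in each of the 11 libraries, and it passed the filter on low counts only through tunicamycin 2 h replicate 3, where 7 counts made 1.69 CPM. A change in CDNF footprints was therefore not detectable at this depth.

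CRELD2 RNA was 4.51-fold higher after 6 h of tunicamycin. CRELD2 (chromosome 22, 49918634 to 49927537) had 372, 325 and 393 CPM after 6 h, against 59.9, 89.0 and 92.6 CPM in untreated cells. The means were 363 ± 34.9 and 80.5 ± 17.9 CPM (SD, n = 3 each), and every treated library lay above every untreated one. The log2 fold change was 2.17 ± 0.24 (edgeR adjusted p = 0.0019). At 2 h CRELD2 had 88.0, 106 and 111 CPM, a range that overlapped the untreated one, and its log2 change of 0.34 ± 0.23 did not pass (edgeR adjusted p = 0.579). Between 6 h and 2 h it rose by 1.84 ± 0.24 (edgeR adjusted p = 0.00889), a call lost without 2 h replicate 2 or 2 h replicate 3 (adjusted p up to 0.0753). MANF and CRELD2 at 6 h against untreated cells were called in all 13 alternative fits, with log2 changes of 1.85 to 2.24 and 1.92 to 2.29; without untreated replicate 1, the library that stood apart, they were 1.95 and 2.01.

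CRELD1 RNA was 2.23-fold higher after 6 h of tunicamycin. CRELD1 (chromosome 3, 9933834 to 9945406) had 41.0, 31.2 and 36.5 CPM after 6 h, against 18.9, 14.9 and 14.9 CPM in untreated cells. Treated and untreated libraries did not overlap, with means of 36.2 ± 4.92 and 16.2 ± 2.32 CPM (SD, n = 3 each). The log2 fold change of 1.16 ± 0.23 passed narrowly (edgeR adjusted p = 0.0337). The call was lost in 5 of the 6 fits that left out 1 library (adjusted p up to 0.151, all but that without untreated replicate 1), when the compared groups were fitted alone (0.0795) and with scaling by library size alone (0.178, log2 change 0.82). After 2 h CRELD1 had 16.3, 22.4 and 22.7 CPM, and neither the 2 h change (0.33 ± 0.22, edgeR adjusted p = 0.569) nor the difference between 6 h and 2 h (0.82 ± 0.22, edgeR adjusted p = 0.16) passed. DESeq2 called the difference between 6 h and 2 h (0.82, adjusted p = 0.0251), as did edgeR with replicates 2 and 3 alone (0.59, adjusted p = 0.0038). Those fits called 1402 and 7230 genes, with 1.6% and 12.6% of all genes called higher.

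**Figure D1:**
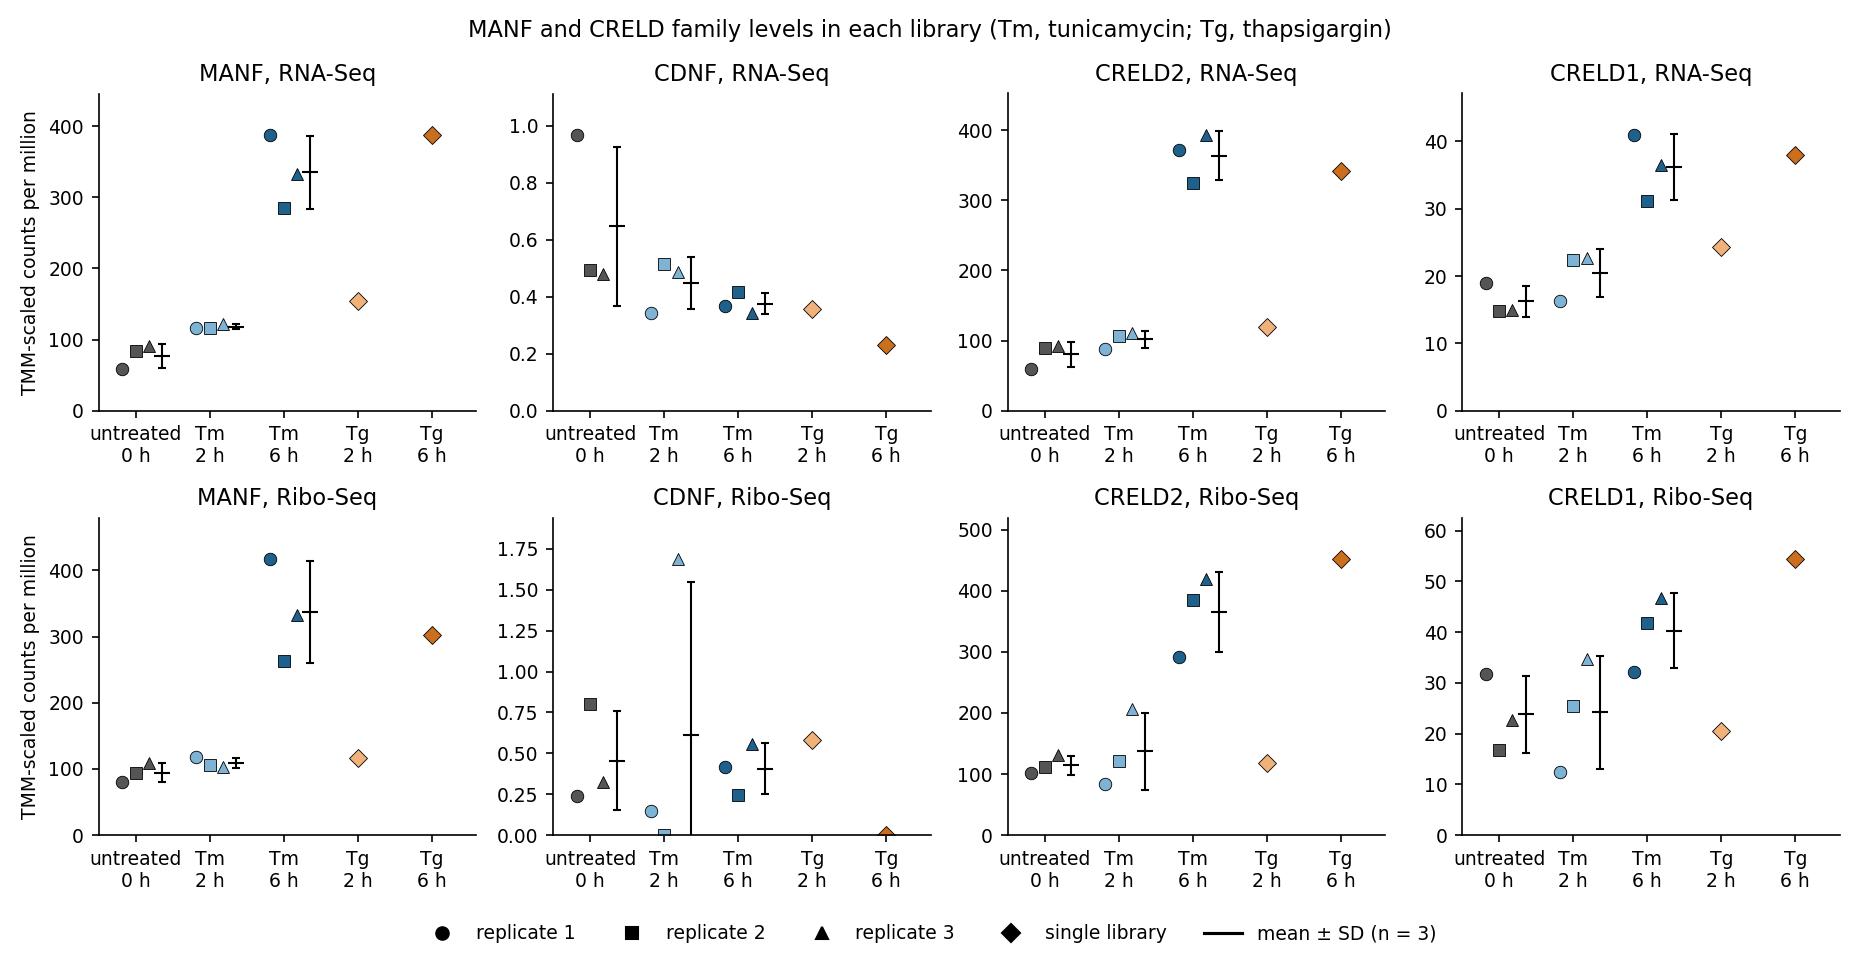
TMM-scaled CPM of MANF, CDNF, CRELD2 and CRELD1 (vertical axes, each from 0) in every library of the RNA-Seq (top) and Ribo-Seq (bottom), by treatment and time; circles, squares and triangles are replicates 1, 2 and 3, diamonds are the single thapsigargin libraries, and the bar beside each group of 3 is its mean ± SD (cut at 0 where it would go below). MANF and CRELD2 RNA lies between 285 and 393 CPM after 6 h of tunicamycin and between 58.5 and 92.6 CPM in untreated cells, while CDNF stays under 1 CPM in RNA.

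None of the 3 receptors passed the test in the RNA at 6 h. KDELR2 (chromosome 7, 6461089 to 6484152), one of the receptors that return KDEL proteins to the ER, had 553, 514 and 638 CPM after 6 h of tunicamycin, against 243, 360.3 and 396 CPM in untreated cells. Every treated library lay above every untreated one, with means of 568 ± 63.8 and 333 ± 80.0 CPM (SD, n = 3 each). The log2 change was 0.77 ± 0.24 (95% interval 0.23 to 1.31; edgeR adjusted p = 0.168). DESeq2 called it (0.75, adjusted p = 0.0267), as did the fit of replicates 2 and 3 alone (0.63, adjusted p = 0.0115), which was chosen after the data were seen. Those fits called 2226 and 5590 genes, with 2.27% and 10.6% of all genes called higher. At 2 h KDELR2 had 361, 334 and 416 CPM, and its change was 0.15 ± 0.24 (edgeR adjusted p = 0.817).

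KDELR1 (chromosome 19, 48382575 to 48397412), another of these receptors, had RNA levels that differed by replicate number, with the groups overlapping. It had 57.3, 92.4 and 97.9 CPM after 6 h of tunicamycin, against 42.6, 92.9 and 96.7 CPM in untreated cells, and 54.3, 82.7 and 104 CPM at 2 h. The replicate 1 libraries of the 3 groups held 42.6 to 57.3 CPM and replicates 2 and 3 held 82.7 to 104 CPM, with no overlap. Of the 7 genes only KDELR1 RNA separated the libraries in this way. The 2 thapsigargin libraries of the RNA-Seq, which also carry the number 1, held 46.6 and 67.5 CPM. The log2 change after 6 h of tunicamycin was 0.092 ± 0.36 (edgeR adjusted p = 0.901; 95% interval -0.71 to 0.89), and with library size alone it turned to -0.12.

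KDELR3 (chromosome 22, 38468096 to 38483447), the third receptor, had 55.7, 31.1 and 32.6 CPM after 6 h of tunicamycin, against 33.9, 32.0 and 37.4 CPM in untreated cells. Replicate 1 was high after 6 h, and the other 2 treated libraries lay within or below the untreated range. The log2 change was 0.21 ± 0.27 (edgeR adjusted p = 0.674), and it was -0.10 both with library size alone and with replicates 2 and 3 alone. At 2 h KDELR3 had 52.4, 33.4 and 46.0 CPM and its change was 0.35 ± 0.27 (edgeR adjusted p = 0.624).

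**Figure D2:**
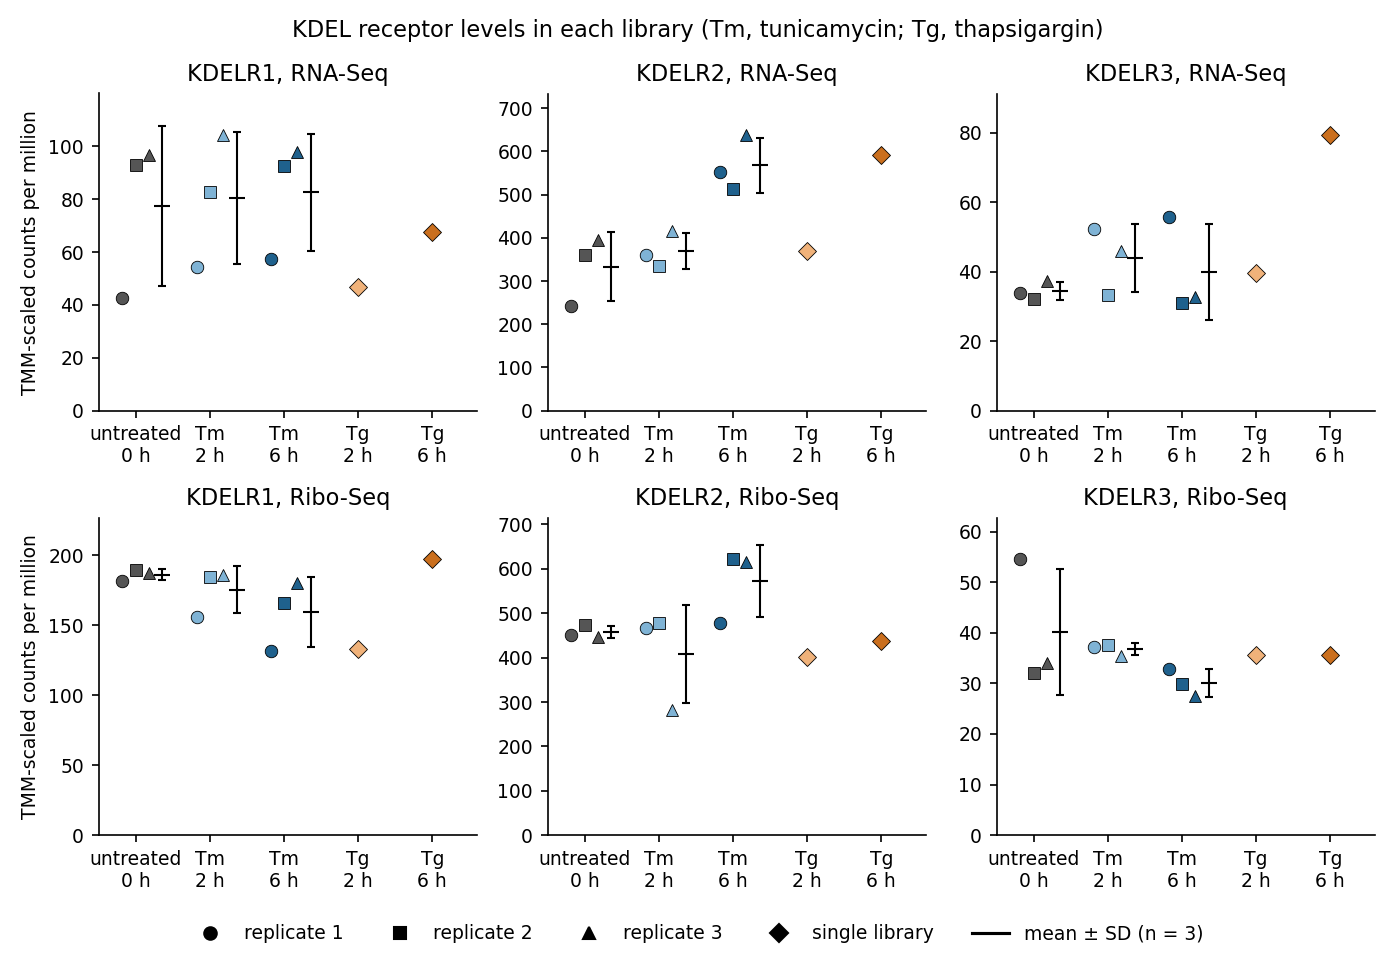
TMM-scaled CPM of KDELR1, KDELR2 and KDELR3 (vertical axes, each from 0) in every RNA-Seq (top) and Ribo-Seq (bottom) library, with symbols as replicates 1, 2 and 3 or the single thapsigargin library, and mean ± SD beside each group of 3. Replicate 1 of KDELR1 RNA lies at 42.6 to 57.3 CPM in all 3 groups, below the other replicates, and KDELR2 RNA after 6 h of tunicamycin lies above the untreated libraries.

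In the RNA after 6 h of tunicamycin 3 of the 7 genes were called higher and none lower, where 1.23% of all tested genes were called higher (504 higher and 113 lower of 41130). The median log2 change of the 7 genes was 0.77, against -0.27 over all tested genes. Without untreated replicate 1 the 2 medians were 0.60 and -0.012, and with the compared groups alone they were 0.73 and -0.040. Scaling by library size alone moved that median of all genes to -0.58 and the calls to 298 higher and 118 lower, and a fit with the replicate number as a block called 1624 genes and the same 3 members. After 2 h none of the 7 was called, where 0.00973% of all genes were called higher in edgeR, and DESeq2 called none of the 7. In edgeR 1 of them (MANF) had an unadjusted p under 0.05, as had 3315 of all 41130 genes. With replicates 2 and 3 alone, MANF (0.47, adjusted p = 0.0403) and CRELD1 (0.62, adjusted p = 0.0157) passed at 2 h, in a fit that called 1269 of 28828 genes (769 higher, 2.67%, and 500 lower). Between 6 h and 2 h, MANF and CRELD2 were 2 of 7 called higher, against 0.588% of all genes.

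The rise of MANF and CRELD2 was also measured in ribosome footprints. MANF had 417, 264 and 332 CPM of footprints after 6 h of tunicamycin, against 80.0, 93.4 and 109 CPM in untreated cells, a log2 change of 1.84 ± 0.26 (edgeR adjusted p = 0.00667 over 19411 genes). CRELD2 had 292, 384 and 419 CPM, against 101, 111 and 132 CPM in untreated cells, a change of 1.67 ± 0.33 (edgeR adjusted p = 0.0387). For both genes every treated library lay above every untreated one. MANF kept its call in 5 of the 6 fits that left out 1 library and missed it without untreated replicate 2 (adjusted p = 0.0541). CRELD2 lost its call in all 6 (adjusted p 0.0785 to 0.182), with log2 changes of 1.56 to 1.81. These 2 of 7 genes were called higher, against 0.67% of all genes in the footprints. A fit with the replicate number as a block called 386 genes, against 163 without it, and the same 2 members.

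CRELD1 footprints were 32.2, 41.9 and 46.8 CPM after 6 h of tunicamycin, against 31.8, 16.7 and 22.8 CPM in untreated cells. All treated libraries were above the untreated ones, the lowest by little, and the change of 0.76 ± 0.37 did not pass (edgeR adjusted p = 0.448). KDELR2 footprints were 479, 621 and 616 CPM, against 452, 474 and 447 CPM, without overlap and with a change of 0.32 ± 0.28 (edgeR adjusted p = 0.714). KDELR1 footprints were 132, 166 and 180.0 CPM, against 182, 189 and 187 CPM. They lay below the untreated range in every replicate, and the change of -0.23 ± 0.23 did not pass (edgeR adjusted p = 0.762). KDELR3 footprints were 32.9, 30.0 and 27.5 CPM, against 54.5, 32.1 and 34.0 CPM, so that the groups overlapped. Within each replicate number KDELR3 was lower after 6 h (log2 differences of -0.72, -0.099 and -0.30), and the change of -0.42 ± 0.27 did not pass (edgeR adjusted p = 0.572). The separation of KDELR1 by replicate number seen in the RNA was not present in its footprints, where replicate 1 held 132 to 182 CPM and replicates 2 and 3 held 166 to 189 CPM.

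At 2 h the footprints of MANF were 118, 106 and 104 CPM and those of CRELD2 83.2, 121 and 207 CPM, both overlapping the untreated libraries. The edgeR test called 0% of all genes higher at 2 h: 619 genes had an unadjusted p under 0.05, none of them among the 7, and DESeq2 called 3 genes and none of the 7. CRELD1 had 12.5, 25.4 and 34.7 CPM at 2 h, KDELR2 had 467, 478 and 281 CPM, KDELR1 had 156, 184 and 186 CPM, and KDELR3 had 37.1, 37.7 and 35.4 CPM. The library of 2 h replicate 3, the shallowest at 4.39 M counts, was at one end of the group for each of these 6 genes. Between 6 h and 2 h MANF footprints rose by 1.63 ± 0.26 (edgeR adjusted p = 0.0148), so 1 of 7 genes was called higher, against 0.608% of all genes. CRELD2 differed by 1.41 ± 0.33 (edgeR adjusted p = 0.0839) and passed with the replicate number as a block (1.48, adjusted p = 0.0171), a fit that called 364 genes against 146 without it. The MANF call between 6 h and 2 h was lost without 2 h replicate 2, 2 h replicate 3, 6 h replicate 1 or 6 h replicate 3 (adjusted p up to 0.113), and CRELD2 passed without 2 h replicate 3 (1.84, adjusted p = 0.0382).

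Translational efficiency, the change of footprints beyond the change of RNA, was tested as an interaction over both assays. Counts were scaled within each library, so a change of translation shared by all genes would not show in footprint or efficiency values. No gene of 18500 was called at 6 h or at 2 h (0% each) in edgeR, where 686 and 726 genes had an unadjusted p under 0.05, none of them among the 7; DESeq2 called 25 and 24 genes, none of the 7. At 6 h the estimate was -0.14 for MANF (95% interval -0.75 to 0.47) and -0.38 for CRELD2 (-1.19 to 0.42), so a footprint rise equal to the RNA rise lies within both intervals. For the receptors it was -0.23 for KDELR1, -0.33 for KDELR2 and -0.46 for KDELR3 (-1.17 to 0.25), and for CRELD1 it was -0.23. These intervals are wide enough to hold changes of up to 1 log2 unit down for 5 of these 6 genes, so smaller differences in translation were not detectable here.

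**Figure D3:**
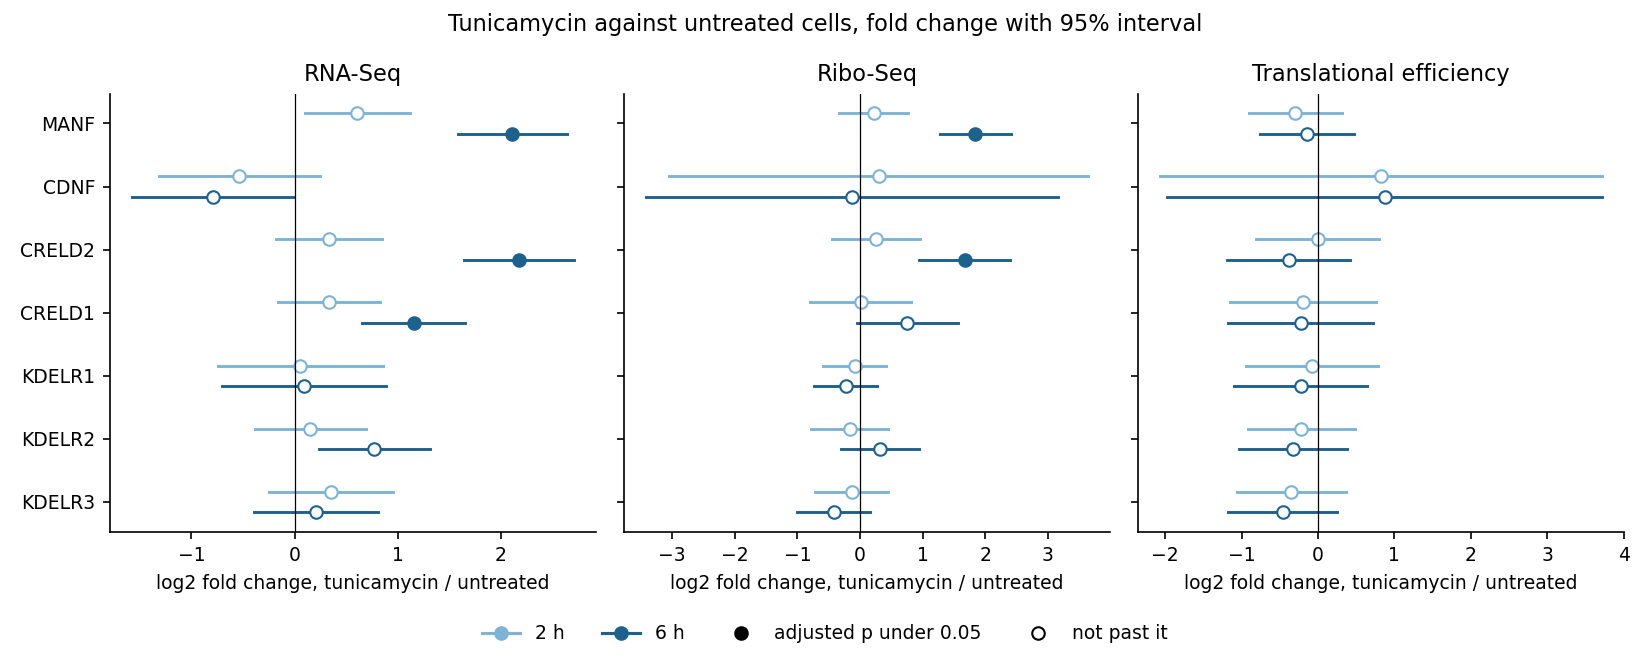
Log2 fold changes of the 7 genes (rows) between tunicamycin and untreated cells at 2 h (light) and 6 h (dark), with 95% intervals, in RNA-Seq, Ribo-Seq and translational efficiency (panels with separate horizontal scales); filled symbols have an adjusted p under 0.05 in edgeR. Filled symbols stand at 6 h for MANF, CRELD2 and CRELD1 in RNA and for MANF and CRELD2 in footprints, and no translational efficiency is filled.

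Thapsigargin, with 1 library per time, allowed values but no test. Differences are of log2(CPM + 0.5) from the untreated mean, a scale that understates changes of scarce genes. MANF RNA was 154 CPM after 2 h and 388 CPM after 6 h, differences of 1.01 and 2.34 from untreated cells. CRELD2 RNA was 119 and 342 CPM (0.58 and 2.11), and CRELD1 RNA was 24.3 and 38.0 CPM (0.57 and 1.21). At 6 h these 3 values lay within the range of the tunicamycin libraries. At 2 h each lay above all 3 tunicamycin libraries of that time, whose differences for MANF were 0.60 to 0.68.

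KDELR3 RNA was 39.6 CPM after 2 h and 79.3 CPM after 6 h of thapsigargin, and the difference of 1.20 at 6 h lay above the range of -0.14 to 0.69 in the tunicamycin libraries. Its footprints were 35.7 and 35.6 CPM, with differences of -0.13 at both times. KDELR2 RNA was 369.6 and 591 CPM (0.18 and 0.86) with footprints of 401 and 438 CPM (-0.19 and -0.062). KDELR1 RNA differed by -0.64 at 2 h and -0.11 at 6 h from the untreated mean. Against untreated replicate 1 alone, which shares its low level, the TMM-scaled differences were 0.13 and 0.66. These differences depend on the scaling. The TMM factor was 1.46 in that untreated library, and 0.92 and 0.90 in the thapsigargin libraries of 2 h and 6 h. In raw counts KDELR1 had 8574 of 138 M there, and 4945 of 115 M and 8812 of 145 M after thapsigargin. KDELR1 footprints were 133 CPM after 2 h and 197 CPM after 6 h. Set against that same untreated replicate, and on the same scaling, KDELR3 RNA after 6 h of thapsigargin differed by 1.22 and KDELR2 RNA by 1.28. Replicate 1 of 6 h tunicamycin differed from it by 0.71 for KDELR3 and by 1.18 for KDELR2.

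In footprints after thapsigargin, MANF had 116 CPM at 2 h and 303 CPM at 6 h (0.32 and 1.69), CRELD2 had 118 and 451 CPM (0.049 and 1.98), and CRELD1 had 20.5 and 54.3 CPM (-0.16 and 1.22). CDNF had 38 and 30 RNA counts and 5 and 0 footprint counts. A difference of at least 1 upward was reached in RNA by MANF alone at 2 h (3.46% of all genes) and by MANF, CRELD2, CRELD1 and KDELR3 at 6 h (5.99%). In footprints it was reached by none at 2 h (6.65%) and by MANF, CRELD2 and CRELD1 at 6 h (11%). The 2 h value of MANF depended on which untreated library was left out (0.82 to 1.14) and was 0.97 with a pseudocount of 5 CPM. With library size alone, MANF RNA at 2 h and CRELD1 and KDELR3 RNA at 6 h fell below a difference of 1. MANF and CRELD2 RNA at 6 h stayed above it. The share of all genes on that scaling was not counted.

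Ordered by mean RNA level over the groups, MANF ran from untreated (77.5 CPM) through 2 h of tunicamycin (118 CPM), 2 h of thapsigargin (154 CPM) and 6 h of tunicamycin (335 CPM) to 6 h of thapsigargin (388 CPM). The last 2 did not differ beyond the spread of the tunicamycin libraries. CRELD2 ran from untreated (80.5 CPM) through 2 h of tunicamycin (102 CPM) and thapsigargin (119 CPM) to 6 h of thapsigargin (342 CPM) and tunicamycin (363 CPM). Here untreated cells and 2 h of tunicamycin overlapped, as did both drugs at 6 h. CRELD1 had the same order as MANF (16.2, 20.4, 24.3, 36.2 and 38.0 CPM) and KDELR2 nearly so (333, 369.6, 371, 568 and 591 CPM, with 2 h of thapsigargin before 2 h of tunicamycin), and in KDELR2 the untreated and 2 h levels overlapped. KDELR3 ran from untreated (34.4 CPM) through 2 h of thapsigargin (39.6 CPM), 6 h of tunicamycin (39.8 CPM) and 2 h of tunicamycin (43.9 CPM) to 6 h of thapsigargin (79.3 CPM). The ranges of the untreated and both tunicamycin groups overlapped, and the 2 h thapsigargin library lay within both tunicamycin ranges and above the untreated libraries (32.0 to 37.4 CPM). KDELR1 had 46.6 and 67.5 CPM after 2 h and 6 h of thapsigargin, and 77.4, 80.4 and 82.5 CPM in untreated cells and after 2 h and 6 h of tunicamycin, all within the range of the untreated libraries.

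Within the receptor family, KDELR2 held a larger share of the counts in each 6 h tunicamycin library than in any untreated one. These are shares of raw counts with no correction for transcript length, so they compare libraries and not the levels of the receptors. KDELR2 made up 83.0, 80.6 and 83.0% of the RNA counts of the 3 receptors after 6 h, against 76.1, 74.2 and 74.7% in untreated cells, with means of 82.2 ± 1.39 and 75.0 ± 0.96% (SD, n = 3 each). In footprints the share was 74.4, 76.1 and 74.8%, against 65.7, 68.1 and 66.9%, with means of 75.1 ± 0.85 and 66.9 ± 1.23% (SD, n = 3 each). Neither assay overlapped between the groups. The exact two-sided permutation p was 0.1 in each, the smallest that 3 against 3 libraries allow, and 0.2 after adjustment over 4 comparisons. At 2 h the share was 75.0 ± 1.99% in RNA and 65.0 ± 7.90% in footprints (exact permutation p = 0.9 and 1), with 56.0% in the shallow replicate 3. After thapsigargin it was 81.1 and 80.1% in RNA at 2 h and 6 h and 70.4 and 65.3% in footprints.

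**Figure D4:**
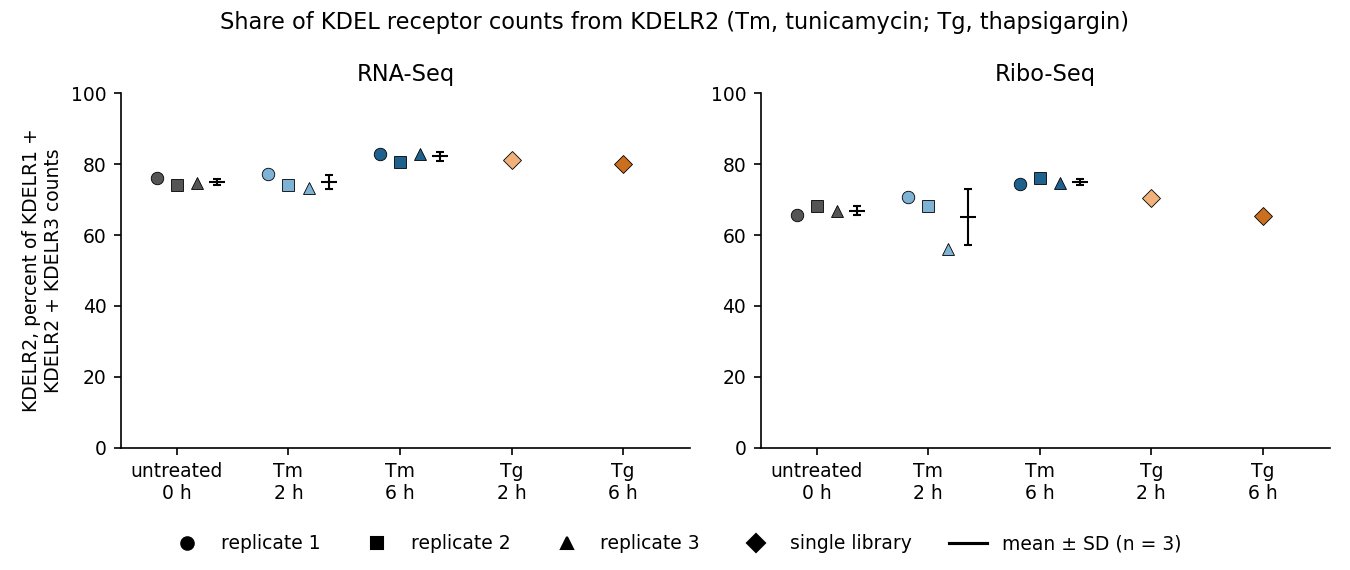
Share of KDELR2 in the summed counts of the 3 KDEL receptors (percent, axis from 0 to 100) in each RNA-Seq and Ribo-Seq library by group, with symbols as replicates 1, 2 and 3 or the single thapsigargin library and mean ± SD beside each group of 3. After 6 h of tunicamycin the share lies at 80.6 to 83.0% in RNA and 74.4 to 76.1% in footprints, against 74.2 to 76.1% and 65.7 to 68.1% in untreated cells.

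Other genes of retrieval were read from 3 lists made from general knowledge, with the C-terminal signals not checked against protein sequences. The lists were chosen with earlier results of these data known, so their counts of called genes are a description. Of 48 ER proteins with a retrieval signal, 9 were called higher and none lower in RNA after 6 h of tunicamycin, where 1.23% of all genes were called higher. Their median log2 change was 0.44 against -0.27 over all genes, and 0.39 against -0.012 without untreated replicate 1. The chaperone HSPA5 (BiP, the partner of MANF) rose by 3.67, its cochaperone SDF2L1 by 3.00 and the chaperone HYOU1 by 2.54. The disulfide isomerase PDIA4 rose by 2.07, the prolyl isomerase FKBP14 by 1.91 and the chaperone HSP90B1 by 1.63. Leaving out 1 library gave 5 calls in this list without 6 h replicate 3, untreated replicate 2 or untreated replicate 3, up to 13 without untreated replicate 1, and the replicate block gave 14 higher and 1 lower. Of 31 genes of the COPI coat and retrieval traffic, 5 were called higher and none lower (median 0.71): the ARF GTPase activator ARFGAP3 by 1.70, the cargo receptor TMED7 by 1.50, the SNARE SEC22B by 1.37, the lectin LMAN1 by 1.20 and the coat subunit COPG1 by 1.17. Leaving out 1 library gave 1 to 3 calls there, and 8 without untreated replicate 1. Of 11 regulators of ER stress, 4 were called higher and none lower (median 0.36). These were XBP1 by 2.45, EIF2AK3 (PERK) by 2.27, ERN1 (IRE1) by 1.79 and ATF4 by 1.63. Without untreated replicate 1 the count was again 4, but ERN1 was lost and another regulator was gained. It was 2 (XBP1 and EIF2AK3) when any other single library was left out, so ERN1 lost its call in each of these fits. Adjusted p-values of these 15 named genes were 0.0014 to 0.0491 in edgeR.

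In footprints, 4 of the 45 retrieval-signal proteins tested were called higher at 6 h (0.67% of all genes), HSPA5 by 3.37, SDF2L1 by 2.68, HYOU1 by 2.13 and PDIA4 by 1.99 (list median 0.12, and -0.023 without 6 h replicate 2; all genes -0.07). That count was 4 without 6 h replicate 1, 6 without untreated replicate 1 and 2 (HSPA5 and SDF2L1) when any other single library was left out, and the replicate block gave 8 higher and 1 lower. ARFGAP3 rose by 1.44 as the only called gene of the 31 traffic genes (median 0.47), a call lost with library size alone, and the count was 3 without untreated replicate 1, 0 when any other single library was left out and 3 with the block. XBP1 rose by 1.85 and EIF2AK3 by 1.59 among the 11 regulators (median 0.33), with 0 calls without 6 h replicate 3, untreated replicate 2 or untreated replicate 3, 1 without 6 h replicate 2 and 3 with the block. At 2 h none of the 3 lists held a called gene in either assay in the edgeR fit of all libraries. In RNA, edgeR with replicates 2 and 3 alone called 3 regulators (ATF4, EIF2AK3 and XBP1) and 2 retrieval-signal genes (HSPA5 and SDF2L1) higher, against 2.67% of all genes. DESeq2 called 1 regulator in RNA (XBP1, named after its values were seen, 1.20 in edgeR) and none elsewhere. In RNA 2, 0 and 3 genes of the 3 lists had an unadjusted p under 0.05 in edgeR, as had 3315 of all 41130 genes. In footprints 0, 0 and 0 had one, against 619 of all 19411 genes. The ERSE was found in the windows of CALR, HSP90B1, HSPA5 and PDIA6 of the 43 retrieval-signal genes with a window, and of XBP1, as in CRELD2; ERSE-II was found in HYOU1 and SDF2L1. None of the 26 traffic genes with a window held either.

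**Figure D5:**
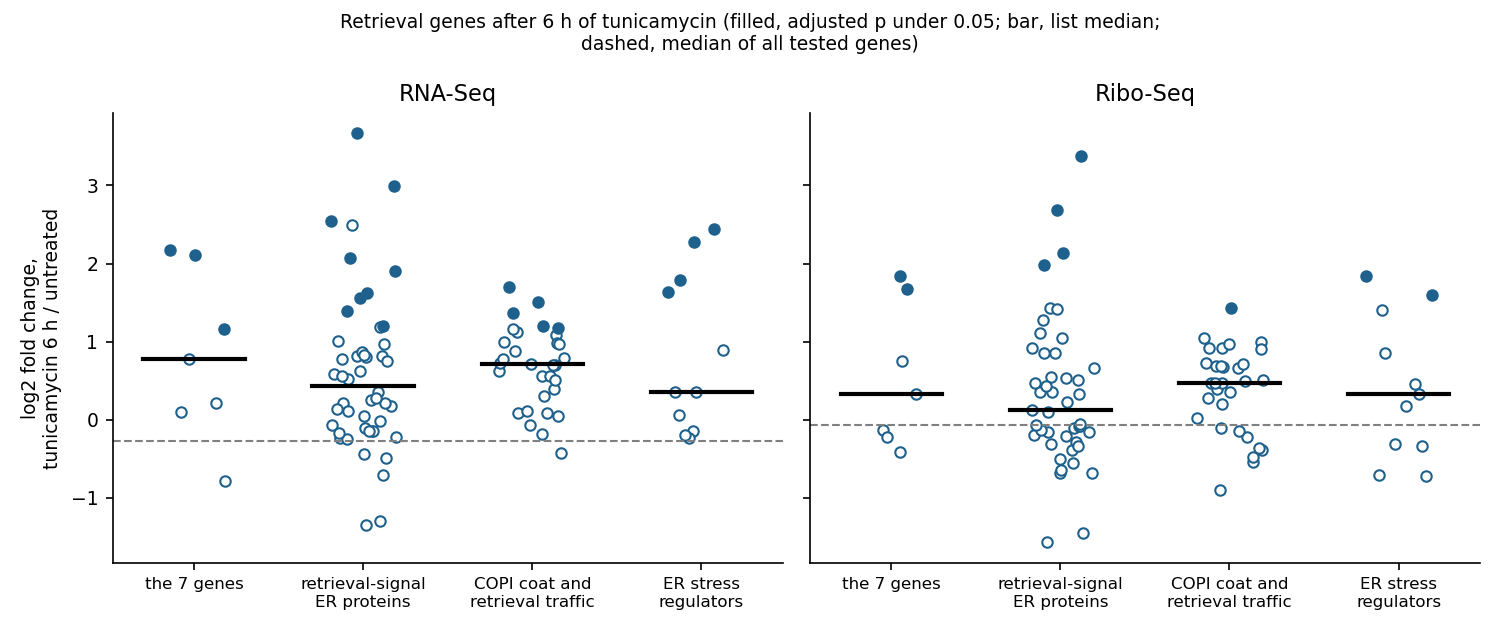
Log2 fold changes after 6 h of tunicamycin against untreated cells (vertical axis) for the 7 genes and the 3 lists, in RNA-Seq and Ribo-Seq; each point is a gene, filled where the adjusted p in edgeR is under 0.05, the bar is the list median and the dashed line the median of all tested genes. HSPA5 stands highest at 3.67 in RNA and 3.37 in footprints, and the median of the traffic list is 0.71 in RNA and 0.47 in footprints.

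The genes whose levels ran most like those of each member were found by Pearson's r of log2(CPM + 0.5), centred within each assay, over 22 libraries and 11145 genes. These libraries share treatments, so the values are a description. For MANF they were GOT1 (0.98), RAB39B (0.97) and SERP1 (0.97), and for CRELD2 HYOU1 (0.99), LARP6 (0.98) and FKBP11 (0.97). For CRELD1 they were POLR3D (0.91), ALG12 (0.90) and NCKAP5L (0.90). KDELR2 ran most like SSR1 (0.95), STK4 (0.93) and CLIC4 (0.93), KDELR1 like CYB5R3 (0.92), PNPLA2 (0.91) and NRSN2 (0.89), and KDELR3 like SLC30A9 (0.86) and GPBP1L1 (0.79). CDNF, whose counts are too sparse to order genes by, had SPIRE2 (0.77), D2HGDH (0.73) and CLCN2 (0.70).

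Among the members themselves, MANF and CRELD2 had an r of 0.93, CRELD2 and CRELD1 0.89, and MANF and CRELD1 0.77. KDELR2 had an r of 0.93 with MANF and 0.94 with CRELD2 over the 11 RNA-Seq libraries, and 0.49 and 0.31 over the 11 Ribo-Seq libraries. KDELR1 and KDELR3 stayed at or below 0.45 with MANF and CRELD2 in RNA, and KDELR3 had values of -0.59 and -0.57 with them in footprints. KDELR1 and KDELR3 had an r of -0.21 with each other over all 22 libraries.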

How the data were processed

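All values start from the counts the authors deposited, 1 file per library with 58278 Ensembl entries, of which 57437 were given a symbol. The submitters' processing notes name STAR 2.5.4b, HTSeq, DESeq2 and build GRCh38. What each tool did, which annotation was counted and whether strand was used is not given in the sources used here, so reads of overlapping and antisense genes cannot be told apart. Footprints were 27 to 33 nt fragments of monosomes from cells given cycloheximide, per the labels' protocols. The 7 genes and the 3 lists were chosen with earlier results of these data known.

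Counts were filtered with filterByExpr (minimum count 10), TMM-scaled and tested with edgeR 4.0.16 (glmQLFit, robust; glmQLFTest) in R 4.3.3 over all 11 libraries of an assay, or 22 for translational efficiency, with adjustment over all tested genes and a threshold of 0.05. Fits were tested on simulated data. The smallest group is 1 library, so 1 library can carry a gene through the filter. DESeq2 1.42.0, other scalings, no filter, the compared groups alone, a replicate block, left-out libraries and, for thapsigargin, another pseudocount were alternatives; the fit of replicates 2 and 3 alone was added after the data were seen. Pairing was checked on deviations from the group mean. Their correlation between libraries of the same number was at least 0.138 in 5 of 6 comparisons. It was highest in RNA between 6 h and 2 h of tunicamycin, at 0.699 to 0.840. In RNA at 6 h against untreated cells it was 0.211 to 0.444. In RNA at 2 h against untreated cells it was 0.073 to 0.444. Between libraries of different numbers it ranged from -0.76 to 0.59 over the 6 comparisons. The main fits did not use the pairing, which entered only the replicate block among the alternatives. Libraries of a group differed by more than sampling noise (chi-square per degree of freedom 25.8 to 543). The highest values were those of RNA-Seq pairs with replicate 1 (417 to 543). In untreated Ribo-Seq, pairs with replicate 1 gave 217 and 219, and replicates 2 and 3 gave 31.6. In the tunicamycin groups of the Ribo-Seq these were 55.1 to 103, against 52.1 and 64.9. Named list genes are the called ones with the largest change and a mean of at least 50 counts, up to 6 or 4 per list, or all where 5 or fewer were called; named companions are the 3 highest correlations, of which 1 is not reported here. Exact tests used scipy 1.17.1, and promoter windows are from RefSeq.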

Additional observations from a re-analysis of the deposited data

Results flagged for a closer look

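In footprints at 6 h, KDELR1 was above the untreated mean in the thapsigargin library (0.082 on the log2 scale) and below it in all 3 tunicamycin libraries (-0.50 to -0.047). KDELR2 was below the untreated mean in the thapsigargin library (-0.062) and above it in all 3 tunicamycin libraries (0.065 to 0.44). The difference between the drugs was not tested, and thapsigargin had 1 library. Groups of 3 libraries are too small for a check of single outlying values.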

How the results depend on the processing

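MANF and CRELD2 RNA at 6 h against untreated cells kept their calls under all 13 alternatives, and no called value turned its direction. Of 377 values of single genes under the other settings, 347 kept direction and call, 11 gained a call, 2 lost one (CRELD1 RNA) and 17 turned; with 1 of the 18 tunicamycin or untreated libraries left out, 361 of 417 kept both. The cause of each move was not tested.

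With DESeq2, calls over all genes in RNA were 2226 at 6 h (617 in edgeR), 61 at 2 h (4) and 1402 between the times (305). In footprints they were 602 (163), 3 (0) and 434 (146). The last held 2 members (1), where 0.79% of all genes were called higher (0.608%). For translational efficiency the calls were 25 and 24 (0 each). Without a filter, footprints gave 745, 47 and 495 calls and 2 members between the times, where 0.91% of all genes were called higher. The compared groups alone gave 2 RNA calls at 2 h and 737 between the times. The replicate block gave 1624, 8 and 1121 calls in RNA, and 386 at 6 h and 364 between the times in footprints. The last held 2 members, where 1.67% of all genes were called higher. The block changed no other member call. Replicates 2 and 3 alone gave 5590, 1269 with 2 members and 7230 with 4 members in RNA, and 378 and 639 with 2 members in footprints. The shares of all genes called higher were 10.6%, 2.67% and 12.6% in RNA, and 1.95% and 2.58% in footprints.

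Leaving out 1 library gave 187 to 963 calls in RNA at 6 h, 4 to 7 at 2 h and 23 to 223 between the times with 0 to 2 members (0 without tunicamycin 2 h replicate 2 or 3, and 1 without 6 h replicate 3). In footprints it gave 34 to 166 at 6 h with 0 to 1 members (0 without untreated replicate 2) and 30 to 162 between the times with 0 to 1 members (0 without 2 h replicate 2, 6 h replicate 1 or 6 h replicate 3). The share of all genes called higher was 0.054 to 0.41% in RNA between the times. In footprints it was 0.16 to 0.80% at 6 h and 0.13 to 0.54% between the times.

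Values that turned were all uncalled. With library size alone KDELR1 RNA was -0.12, -0.053 and -0.068 (6 h, 2 h and between) and KDELR3 RNA -0.10 at 6 h. With replicates 2 and 3 alone KDELR3 RNA was -0.099 at 6 h, CDNF RNA 0.064 and KDELR1 RNA -0.0032 at 2 h, KDELR1 and KDELR3 footprints 0.0034 and 0.17 at 2 h, and CRELD1 efficiency 0.0015 at 6 h. CRELD1 footprints at 2 h were -0.061 without a filter and -0.046 with the block. CRELD2 efficiency at 2 h (-0.0030) was 0.079, 0.062, 0.076, 0.056 and 0.14 with RLE, library size, DESeq2, the groups alone and replicates 2 and 3 alone.

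With 1 library left out, RNA values were -0.19 to 0.31 (6 h), -0.22 to 0.28 (2 h) and -0.16 to 0.27 (between) for KDELR1, -0.10 to 0.34 (6 h) and -0.45 to 0.014 (between) for KDELR3, and -0.016 to 0.30 for KDELR2 (2 h). Footprints were -0.42 to 0.53 (6 h) and -0.033 to 0.95 (2 h) for CDNF, and at 2 h -0.34 to 0.33 for CRELD1, -0.17 to 0.52 for CRELD2, -0.29 to 0.046 for KDELR2 and -0.27 to 0.17 for KDELR3. Efficiency at 6 h was -0.46 to 0.029 for CRELD1 and -0.46 to 0.013 for KDELR1, and at 2 h -0.51 to 0.13 for CRELD1, -0.39 to 0.26 for CRELD2, -0.32 to 0.18 for KDELR1 and -0.35 to 0.0082 for KDELR2.

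Ribo-Seq depth (4.39 to 29.2 M counts, against 101 to 167 M in RNA-Seq) limits the precision of the footprint and efficiency values, as does the group size of 3 libraries.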
